A study of Homo sapiens with 4 samples.

Results

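The miR-17-92 cluster is a group of miRNA hairpins cut from 1 primary transcript. Its guide arms, the strands that are mainly loaded into the silencing complex, are hsa-miR-17, hsa-miR-18a, hsa-miR-19a, hsa-miR-20a, hsa-miR-19b and hsa-miR-92a. These 6 miRNAs were taken by name from the 1733 miRNAs counted in each library, and all 6 had counts in all 4 libraries. Small RNA had been sequenced from a pair of human hepatoma lines (HCC cells), named Hep3B and Huh7, and from stem-like cancer cells grown out of them (HCSCs), Hep3B-C from Hep3B and Huh7-C from Huh7. Each condition was 1 library of 1 line, so no difference between single libraries has a replicate check. Intervals, and p-values of comparisons between single libraries, hold counting noise only unless biological variation was assumed. A model over both lines, given below, took the lines as replicates.

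MiRNAs bind messenger RNAs mainly through the seed, bases 2 to 8 from the 5′ end, so that miRNAs with the same seed share many of their targets. The cluster, also known as oncomiR-1, is amplified or highly expressed in many tumors. Its miR-17 and miR-20a are known to act on cell cycle regulators such as E2F1 and CDKN1A, and miR-92a has been studied for its part in the growth of blood vessels.

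The mature sequences, from RefSeq (GRCh38.p14), are shown in the order of the hairpins because the 6 members fall into 4 seeds, and the seed is in capitals.
hsa-miR-17: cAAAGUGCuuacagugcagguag
hsa-miR-18a: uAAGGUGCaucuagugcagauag
hsa-miR-19a: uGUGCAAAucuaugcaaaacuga
hsa-miR-20a: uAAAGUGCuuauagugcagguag
hsa-miR-19b: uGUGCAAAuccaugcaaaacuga
hsa-miR-92a: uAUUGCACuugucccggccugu

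MiR-17 and miR-20a shared the seed AAAGUGC and differed by 2 substitutions, C1U and C12U, counted from the 5′ end with the base of miR-17 first. MiR-19a and miR-19b shared the seed GUGCAAA and differed by U11C. The seeds of miR-18a (AAGGUGC) and miR-92a (AUUGCAC) had no other member of the cluster. The G and C content of miR-92a was 54.5%, against 34.8% (miR-19a) to 47.8% (miR-17) in the other 5.

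In RefSeq the 6 hairpins lie on the plus strand of chromosome 13 within 787 bases, from MIR17 (chr13:91350605-91350688) to MIR92A1 (chr13:91351314-91351391). MIR18A starts 146 bases after the start of MIR17, MIR19A 286, MIR20A 460, MIR19B1 587 and MIR92A1 709. GENCODE release 29 (GRCh38) places all of them in the noncoding gene MIR17HG (chr13:91347820-91354579), within an exon in 2 of its 3 transcripts and within an intron in the other. The mature miR-19b and miR-92a are also encoded by MIR19B2 and MIR92A2 on chromosome X, so a read of these 2 members does not show from which locus it came. The other 4 mature sequences each had 1 locus.

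Levels are given as TPM, which scales each count to the total reads of its library, so that 1 count equalled 0.0596 TPM in Hep3B and 0.0941 TPM in Huh7, the deepest and the shallowest library. MiRNA counts summed to 1739278 in Hep3B and to 4045199 to 5741567 in the other 3. MiRNA counts made up 10.4% of total reads in Hep3B and 35.2% in Hep3B-C, against 54.1% in Huh7 and 37.8% in Huh7-C. With total reads as library sizes, the median log2 fold-change of all miRNAs was therefore not at 0. It was 1.42 over 475 miRNAs in Hep3B-C against Hep3B, and -0.66 over 431 in Huh7-C against Huh7 (at least 10 counts in either library). Total miRNA counts as library sizes moved every log2 fold-change by -1.76 in the Hep3B pair and by 0.52 in the Huh7 pair. TMM library sizes moved it by -1.41 and 0.32, and DESeq2 size factors by -1.18 and 0.57. For this reason, directions are given under each of these 4 library sizes, and shares and ratios, which need none, are given beside them. MiR-122, the main miRNA of hepatocytes, had 397 counts in Hep3B and 144814 to 489443 in the other 3 libraries. The 8 markers of embryonic stem cells summed to 0 counts in Hep3B and Hep3B-C, with 3 in Huh7 and with 16 in Huh7-C. The 6 blood cell markers summed to 8, 1 and 5 counts in Hep3B, Hep3B-C and Huh7-C and to 796 in Huh7, of which miR-451 gave 773. Their part in the results was not tested.

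The summed counts of the 6 members were 66159 in Hep3B and 181684 in Hep3B-C, against 24249 in Huh7 and 14386 in Huh7-C. In TPM the cluster stood at 3942, 11767, 2283 and 1343 in the same order. It made up 3.80% of miRNA counts in Hep3B (95% Clopper-Pearson interval 3.78% to 3.83%) and 3.35% in Hep3B-C (3.33% to 3.36%), against 0.422% in Huh7 (0.417% to 0.428%) and 0.356% in Huh7-C (0.350% to 0.361%). The cluster therefore took a larger share of miRNA counts in both libraries of the Hep3B line than in both libraries of the Huh7 line.

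MiR-17 had 17417 counts in Hep3B (1038 TPM) and 29610 in Hep3B-C (1918 TPM), against 3155 in Huh7 (297 TPM) and 3726 in Huh7-C (348 TPM). MiR-20a, which has its seed, had 22741 (1355 TPM), 46172 (2990 TPM), 10386 (978 TPM) and 5791 (540.5 TPM). Both were highest in Hep3B-C and lower in both Huh7 libraries than in both Hep3B libraries, but the lowest library was Huh7 for miR-17 and Huh7-C for miR-20a.

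MiR-92a had 20863 counts in Hep3B (1243 TPM) and 96268 in Hep3B-C (6235 TPM), against 7139 in Huh7 (672 TPM) and 3739 in Huh7-C (349 TPM). By counts it was the 12th most abundant miRNA of Hep3B-C, the highest place of any member in any library, and it stood at place 18 in Hep3B, 39 in Huh7 and 42 in Huh7-C. MiR-17, miR-20a and miR-92a together carried most of the cluster reads in every library.

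MiR-18a, the member whose seed differs from that of miR-17 by 1 base, had 2074 counts in Hep3B (124 TPM) and 3251 in Hep3B-C (211 TPM), against 1687 in Huh7 (159 TPM) and 482 in Huh7-C (45.0 TPM). MiR-19a had 1005 (59.9 TPM), 2471 (160.0 TPM), 698 (65.7 TPM) and 316 (29.5 TPM). MiR-19b had 2059 (123 TPM), 3912 (253 TPM), 1184 (111 TPM) and 332 (31.0 TPM). In TPM these 3 members were highest in Hep3B-C and lowest in Huh7-C, while Hep3B and Huh7 stood close together in between. For miR-19a the interval of the log2 ratio of Huh7 to Hep3B was -0.01 to 0.27 with total reads, within counting noise. This closeness held with total reads only. Under total miRNA counts, TMM and DESeq2 size factors the ratio was -2.25, -1.33 and -1.31 for miR-19a. It was -2.02, -1.10 and -1.08 for miR-18a and -2.52, -1.60 and -1.58 for miR-19b.

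**Figure D1:**
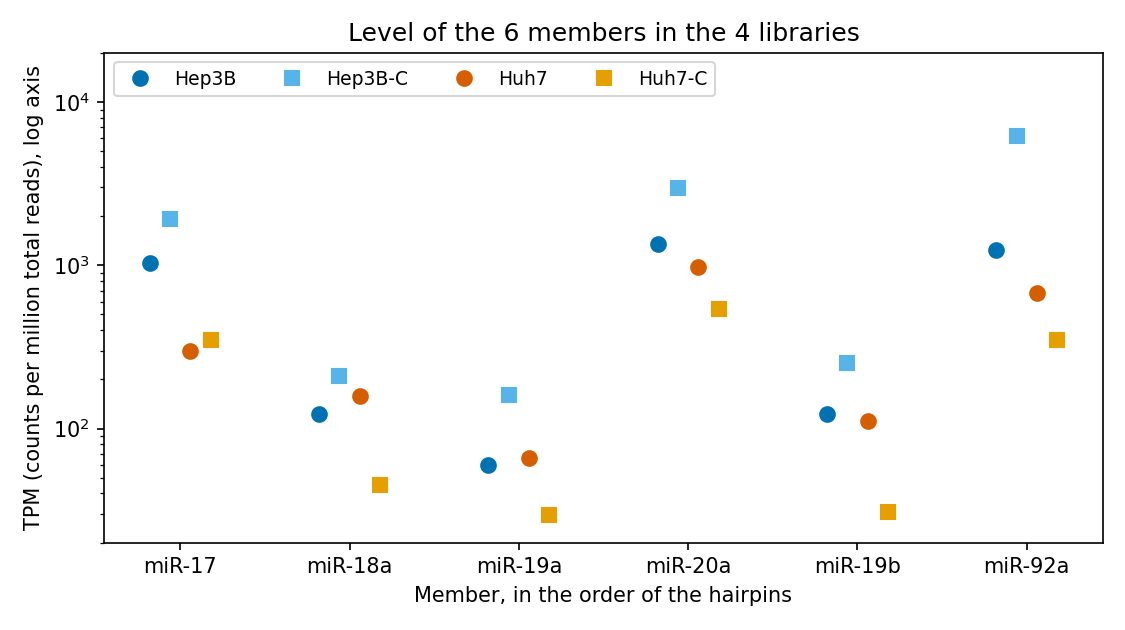
Level of the 6 members (x axis, in the order of the hairpins) in TPM on a log axis, with 1 point per library (circles HCC cells, squares HCSCs). Hep3B-C is the highest library for every member on this scale (as a share of miRNA counts, for miR-92a only), and miR-92a in Hep3B-C, at 6235 TPM, is the highest point.

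The order of the libraries depended on the scale. As a share of miRNA counts, miR-92a was still highest in Hep3B-C (1.77%) ahead of Hep3B (1.20%), whereas the other 5 were highest in Hep3B. MiR-17, for example, made up 1.001% of miRNA counts in Hep3B and 0.545% in Hep3B-C, against 0.0550% in Huh7 and 0.0921% in Huh7-C. Under both scales the lowest library was Huh7 for miR-17 and Huh7-C for the other 5 members.

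Within a library, miR-20a led the cluster in Hep3B, Huh7 and Huh7-C, and miR-92a led it in Hep3B-C. In Huh7-C the counts of miR-92a and miR-17 (3739 and 3726) and those of miR-19b and miR-19a (332 and 316) did not differ beyond counting noise, with ratios whose intervals were 0.959 to 1.05 for miR-92a to miR-17 and 0.813 to 1.11 for miR-19a to miR-19b. MiR-19a was the least abundant member in all 4 libraries, although in Huh7-C it was level with miR-19b within this noise.

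To see how the stem-like cells differed from their parent line, Hep3B-C was first compared with Hep3B with the 2-sided exact test that Audic and Claverie derived from the Poisson distribution. A miRNA was called where the log2 fold-change reached 1 in size and the Benjamini-Hochberg adjusted p over all miRNAs tested was at most 0.01. With total reads as library sizes, 4 of the 6 members (miR-19a, miR-20a, miR-19b and miR-92a) were up-regulated in Hep3B-C and 0 down-regulated, whereas with total miRNA counts 0 were called in either direction. Of all 834 miRNAs tested, 33% were called up and 2.52% down with total reads, and 5.28% and 13.4% with total miRNA counts. The median log2 fold-change of the members was 1.09, below the median of 1.42 of all miRNAs. The largest adjusted p of the 4 called members in this exact test was 8.51e-164 (miR-19b).

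MiR-92a increased from 1243 to 6235 TPM, a log2 fold-change of 2.33 (95% exact binomial interval 2.30 to 2.35). It was higher in Hep3B-C under each library size, by 0.56 with total miRNA counts, 0.91 with TMM and 1.15 with DESeq2 size factors, and it was called with total reads and with DESeq2 size factors. It was the only member whose log2 fold-change lay above the median of all miRNAs in this pair, and 73.3% of miRNAs had a smaller one.

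The other 5 members lay below that median, miR-19a by less than 0.01. The log2 fold-change of miR-19a was 1.42 (interval 1.31 to 1.53), and under the other library sizes it was -0.34, 0.0047 and 0.24. That of miR-20a was 1.14 (1.12 to 1.16) and turned to -0.62, -0.27 and -0.037 with total miRNA counts, TMM and DESeq2 size factors. That of miR-19b was 1.05 (0.97 to 1.12) and turned to -0.72, -0.37 and -0.13. MiR-17 and miR-18a did not reach the fold threshold, with 0.89 (0.86 to 0.91) and 0.77 (0.69 to 0.85), and both were below 0 under the other 3 library sizes, at -0.88, -0.53 and -0.29 for miR-17 and -0.99, -0.64 and -0.41 for miR-18a. The direction of these 5 members in Hep3B-C therefore depended on the library size. MiR-19a turned below 0 only with total miRNA counts, and with TMM it did not differ from 0 beyond counting noise.

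The log2 fold-change of the cluster sum was 1.58 (1.56 to 1.59) with total reads, 0.16 with TMM and 0.40 with DESeq2 size factors, and it turned to -0.19 with total miRNA counts. Without miR-92a the log2 fold-change of the sum was 1.04 with total reads and below 0 with each of the other library sizes (-0.73, -0.38 and -0.14). The sign of the sum under TMM and DESeq2 size factors thus rested on miR-92a.

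In the Huh7 pair, 0 of the 6 members were up-regulated and 3 were down-regulated in Huh7-C with total reads (miR-18a, miR-19a and miR-19b). With total miRNA counts miR-18a and miR-19b were still called down and 0 members up. Of all 772 miRNAs tested, 2.98% were called up and 17.1% down with total reads, and 6.99% and 9.59% with total miRNA counts. The median of the members was -1.05, below the median of -0.66 of all miRNAs. The largest adjusted p of the 3 called members in the exact test was 1.01e-33 (miR-19a).

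MiR-18a decreased from 159 to 45.0 TPM, with a log2 fold-change of -1.82 (-1.97 to -1.67). MiR-19b decreased from 111 to 31.0 TPM, with a log2 fold-change of -1.85 (-2.03 to -1.67). Both were lower in Huh7-C and called under each of the 4 library sizes, from -1.82 to -1.25 for miR-18a and from -1.85 to -1.27 for miR-19b. MiR-19a, which shares the seed of miR-19b, had a log2 fold-change of -1.16 (-1.35 to -0.96) and was below 0 under the other library sizes as well (-0.64, -0.84 and -0.58), where it was not called.

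MiR-20a and miR-92a did not reach the fold threshold, with -0.86 (-0.90 to -0.81) and -0.95 (-1.003 to -0.89), and lay between -0.63 and -0.28 under the other library sizes. MiR-17 was the only member with a positive value, 0.23 (0.16 to 0.30), and it was positive under each library size (0.75, 0.54 and 0.80 under the others) without reaching the threshold. Of all miRNAs, 77.0% had a smaller log2 fold-change than miR-17, and the other 5 members lay below the median. The cluster sum changed by -0.77 (-0.80 to -0.74) with total reads and by -0.45 to -0.19 under the others.

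**Figure D2:**
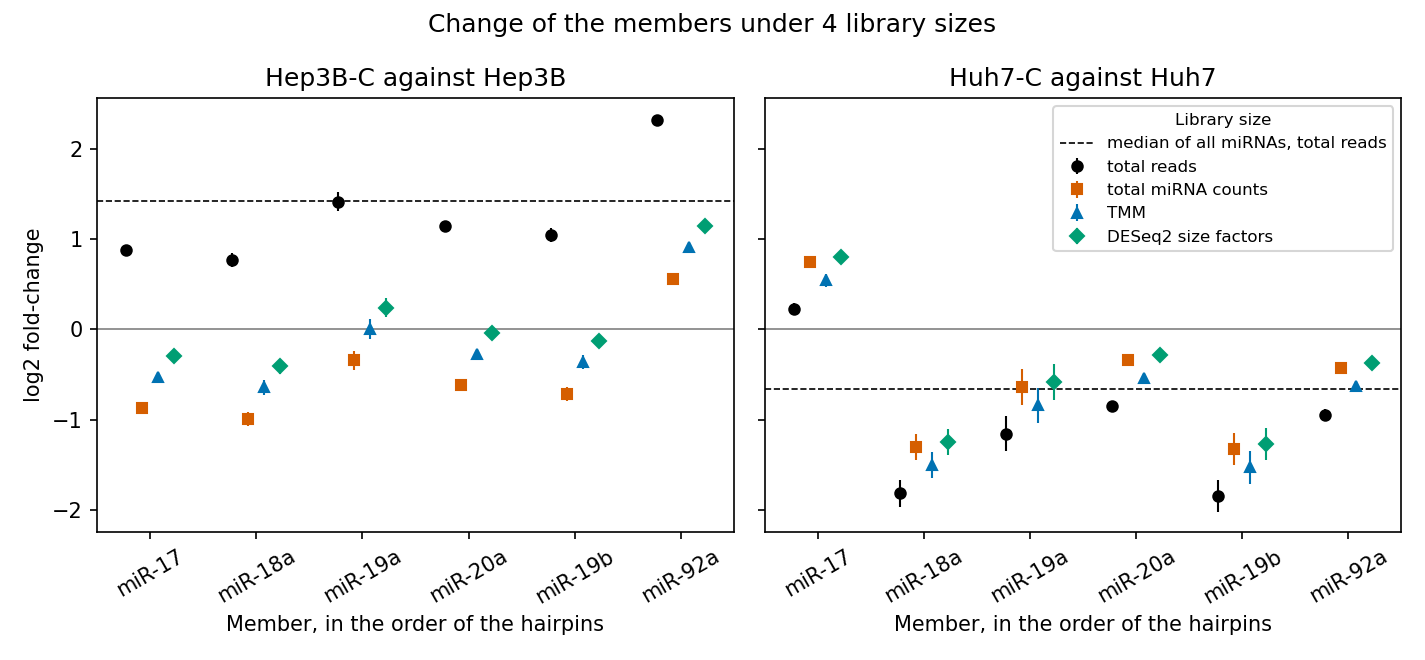
Log2 fold-change (y axis) of the 6 members in Hep3B-C against Hep3B (left) and Huh7-C against Huh7 (right) under 4 library sizes, with 95% intervals for counting noise as bars (many are shorter than the symbols) and the median of all miRNAs with total reads as a dashed line. On the left miR-92a stays above 0 under all 4 and miR-17, miR-18a, miR-20a and miR-19b fall below 0 under 3 of them and miR-19a under total miRNA counts, and on the right miR-17 stays above 0 and the other 5 stay below it.

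Since the 6 guides come from 1 primary transcript, the composition of the cluster reads was examined in each library. In Hep3B, miR-20a made up 34.4% of the cluster counts, miR-92a 31.5% and miR-17 26.3%. In Hep3B-C the share of miR-92a was 53.0% (52.8% to 53.2%), and those of miR-20a and miR-17 were 25.4% and 16.3%. Relative to the other 5 members, miR-92a was 2.45-fold higher in Hep3B-C than in Hep3B (log2 1.29, interval 1.26 to 1.32). The other 5 each had a negative value, from -0.88 (miR-17) to -0.16 (miR-19a). For each of these 5 the comparison included miR-92a, so its gain lowered their values. With total reads the sum without miR-92a changed by 1.04, less than miR-19a (1.42) and miR-20a (1.14) and more than miR-17 (0.89) and miR-18a (0.77). MiR-19b (1.05, interval 0.97 to 1.12) was level with that sum within counting noise. The count ratio of miR-92a to miR-17 was 1.20 in Hep3B and 3.25 in Hep3B-C.

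In Huh7 the shares were 42.8% for miR-20a, 29.4% for miR-92a and 13.0% for miR-17. In Huh7-C they were 40.3%, 26.0% and 25.9%. Relative to the other 5 members, miR-17 was 2.34-fold higher in Huh7-C than in Huh7 (log2 1.22, interval 1.15 to 1.30). On this measure miR-18a and miR-19b were lower by -1.11 and -1.12 and miR-20a, miR-92a and miR-19a by -0.15, -0.25 and -0.40. The comparison for these 5 included miR-17, so its gain lowered their values. The member that gained against the sum of the other 5 thus differed between the pairs, miR-92a in Hep3B-C and miR-17 in Huh7-C.

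The Huh7 library stood apart in the balance of miR-17 with miR-20a and with miR-18a. It did not for miR-92a, whose ratio to miR-17 was 2.26 in Huh7 and largest, at 3.25, in Hep3B-C. All these ratios use the same miR-17 counts. The ratio of miR-17 to miR-20a, which share a seed, was 0.766 in Hep3B (0.751 to 0.781), 0.641 in Hep3B-C (0.632 to 0.651), 0.643 in Huh7-C (0.617 to 0.671) and 0.304 in Huh7 (0.292 to 0.316). The intervals of Hep3B-C and Huh7-C overlapped, and that of Huh7 lay below all others. The ratio of miR-18a to miR-17, the adjacent hairpins, was 0.119, 0.110 and 0.129 in Hep3B, Hep3B-C and Huh7-C and 0.535 in Huh7. The share of miR-18a in the cluster was 3.13% in Hep3B and 1.79% in Hep3B-C, against 6.96% in Huh7 and 3.35% in Huh7-C. MiR-19b made up 3.11%, 2.15%, 4.88% and 2.31%, and miR-19a 1.52%, 1.36%, 2.88% and 2.20%, so that the 3 less abundant members all had their largest share in Huh7.

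**Figure D3:**
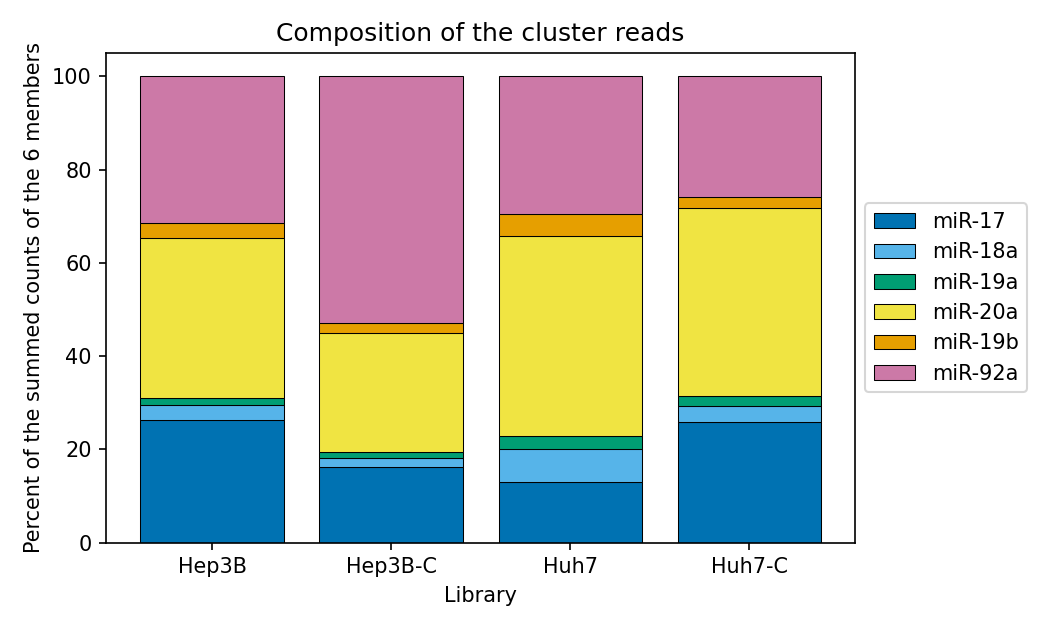
Share of each member (stacked colours) in the summed counts of the 6 members (y axis, percent) in each library (x axis). The part of miR-92a is 53.0% in Hep3B-C and 26.0% to 31.5% in the other 3 libraries, and the part of miR-17 is smallest in Huh7 (13.0%).

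The passenger arms, the strands opposite the guides in the hairpins (marked with an asterisk), give a second reading of each hairpin that the choice of the guides did not use. MiR-17* was the most abundant, with 1134 counts in Hep3B and 3072 in Hep3B-C, against 971 in Huh7 and 575 in Huh7-C. It made up 6.11% of the reads of its hairpin in Hep3B (5.77% to 6.47%) and 9.40% in Hep3B-C (9.09% to 9.72%), against 23.5% in Huh7 (22.2% to 24.9%) and 13.4% in Huh7-C (12.4% to 14.4%). The largest passenger share was that of the Huh7 library, in which miR-17 was low against miR-20a and miR-18a, and the intervals of the 4 libraries did not overlap. This share and those ratios use the same miR-17 counts. The passenger share of the other 5 hairpins was at most 3.98% (miR-18a* in Huh7-C, 20 counts). The sequence of miR-17*, whose seed is not that of any guide of the cluster, is shown in the same way.
hsa-miR-17*: aCUGCAGUgaaggcacuuguag

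In Hep3B-C, 4 of the 6 passenger arms were called up with total reads (miR-17*, miR-18a*, miR-20a* and miR-92a-1*), with log2 fold-changes from 1.28 to 2.74, where 33% of all miRNAs were called up. With total miRNA counts 0 were called up and 1 was called down, where 13.4% of all miRNAs were called down. This was miR-19b-1*, with 34 counts in Hep3B and 42 in Hep3B-C and a log2 fold-change of 0.43 with total reads and -1.34 with total miRNA counts. MiR-92a-1*, which is encoded by MIR92A1 of the cluster and not by its copy on chromosome X, had 63 counts in Hep3B and 388 in Hep3B-C, against 116 in Huh7 and 90 in Huh7-C. Its log2 fold-change in Hep3B-C was 2.74 (2.36 to 3.15), and it was above 0 under each of the other library sizes (0.98, 1.33 and 1.56), as its guide miR-92a was. In Huh7-C it was -0.38 (-0.79 to 0.03) with total reads, 0.14 with total miRNA counts, -0.06 with TMM and 0.19 with DESeq2 size factors.

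In Huh7-C, 1 of the 5 passenger arms tested was called down with total reads, where 17.1% of all miRNAs were. This was miR-19b-1*, with 24 counts in Huh7 and 1 in Huh7-C, and the interval of its log2 fold-change of -4.60 ran from -9.96 to -1.98. With total miRNA counts it was at -4.08 and again called down, where 9.59% of all miRNAs were. MiR-19a* had 2 counts in Hep3B-C and 0 in the other 3 libraries. The change of miR-17* in the Huh7 pair was -0.77 (-0.92 to -0.62), and under the other library sizes -0.25, -0.45 and -0.20, below 0 where its guide was above 0.

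The paralogous cluster on chromosome X was scarce. Its own guide arms miR-106a, miR-18b, miR-20b and miR-363 summed to 104 counts in Hep3B and 164 in Hep3B-C, against 275 in Huh7 and 254 in Huh7-C, which equalled 0.157%, 0.0903%, 1.13% and 1.77% of the counts of the miR-17-92 guides. The passenger arms miR-19b-2* and miR-92a-2*, which are encoded on chromosome X only, had 0 counts in all 4 libraries, where 3 counts would equal 0.179 to 0.282 TPM. They were picked for this check after their values had been seen. MiR-106a differs from miR-17 by the 5′ base alone (C1A), so that the division of reads between these 2 miRNAs rests on that base in the counting by the authors. It stood at 5.78 TPM in Hep3B and 9.39 in Hep3B-C, against 3.48 in Huh7 and 3.64 in Huh7-C. MiR-20b was higher in Huh7 than in Hep3B (110 counts against 1) and in Huh7-C than in Hep3B-C (72 against 6), and miR-363 likewise (118 against 5 and 140 against 13). With total reads both were called up in Huh7 and in Huh7-C, where 32.4% and 13.6% of all miRNAs were, whereas 0 of the miR-17-92 guides were. With total miRNA counts their log2 fold-changes were 5.06 and 4.01 for miR-20b and 2.84 and 3.85 for miR-363.

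The miR-106b-25 cluster on chromosome 7, the third cluster of the family, carries the seeds of miR-17 (miR-106b and miR-93) and of miR-92a (miR-25). Their sequences are shown with the seed in capitals because the arms of both seeds can be set beside those of miR-17-92.
hsa-miR-106b: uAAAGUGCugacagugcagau
hsa-miR-93: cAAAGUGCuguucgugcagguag
hsa-miR-25: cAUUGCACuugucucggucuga

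MiR-93 had 39212 counts in Hep3B (2336 TPM) and 57425 in Hep3B-C (3719 TPM), against 24400 in Huh7 (2297 TPM) and 25188 in Huh7-C (2351 TPM). MiR-25 had 3618 (216 TPM), 14427 (934 TPM), 3068 (289 TPM) and 5486 (512 TPM). MiR-25 was up-regulated in Hep3B-C with total reads, with a log2 fold-change of 2.12 (2.06 to 2.17), and above 0 under the other library sizes (0.35, 0.70 and 0.94).

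MiR-93 had a log2 fold-change of 0.67 and miR-106b of 0.34 in Hep3B-C, and both were below 0 under the other 3 library sizes. The ratio of miR-25 to miR-93 was 0.0923 in Hep3B and 0.251 in Hep3B-C. In this pair the miR-92-seed arm of the miR-106b-25 cluster thus gained against its miR-17-seed neighbour, as miR-92a did in miR-17-92. In the Huh7 pair the 2 clusters differed. The ratio of miR-25 to miR-93 was 0.126 in Huh7 and 0.218 in Huh7-C, whereas that of miR-92a to miR-17 was 2.26 and 1.003. The size of this fall depended on miR-17. The ratio of miR-92a to miR-20a, of the same seed as miR-17, was 0.687 (0.667 to 0.708) in Huh7 and 0.646 (0.619 to 0.673) in Huh7-C, with overlapping intervals. MiR-25 was at 0.83 (0.76 to 0.89) in Huh7-C with total reads, and at 1.34, 1.14 and 1.40 under the other library sizes, while miR-92a was below 0 under all 4.

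The other miRNAs of the miR-92a seed are miR-92b, miR-32 and miR-367. MiR-92b had 71, 76, 77 and 30 counts in Hep3B, Hep3B-C, Huh7 and Huh7-C, miR-32 had 341, 484, 557 and 236, and miR-367 had 0 in all 4. MiR-92b and miR-32 were called down in Huh7-C with total reads (log2 fold-changes -1.37 and -1.25), where 17.1% of all miRNAs were, and with total miRNA counts they had -0.85 and -0.73 and were not called. In Hep3B-C they had 0.22 and 0.63 with total reads and were not called. With total miRNA counts they had -1.54 and -1.14 and both were called down, where 13.4% of all miRNAs were, while miR-92a and miR-25 of the same seed had 0.56 and 0.35.

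Taken over the whole seed, miR-92a supplied 83.8% of the counts with the miR-92 seed in Hep3B and 86.5% in Hep3B-C, against 65.1% in Huh7 and 38.8% in Huh7-C. MiR-17 and miR-20a supplied 48.7%, 55.4%, 31.2% and 25.4% of the counts with the miR-17 seed (miR-17, miR-20a, miR-20b, miR-93, miR-106a and miR-106b). The share of the member sequences in both seeds was thus larger in both libraries of the Hep3B line than in both libraries of the Huh7 line. For miR-92a this share does not separate reads of MIR92A1 from those of MIR92A2 on chromosome X.

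**Figure D4:**
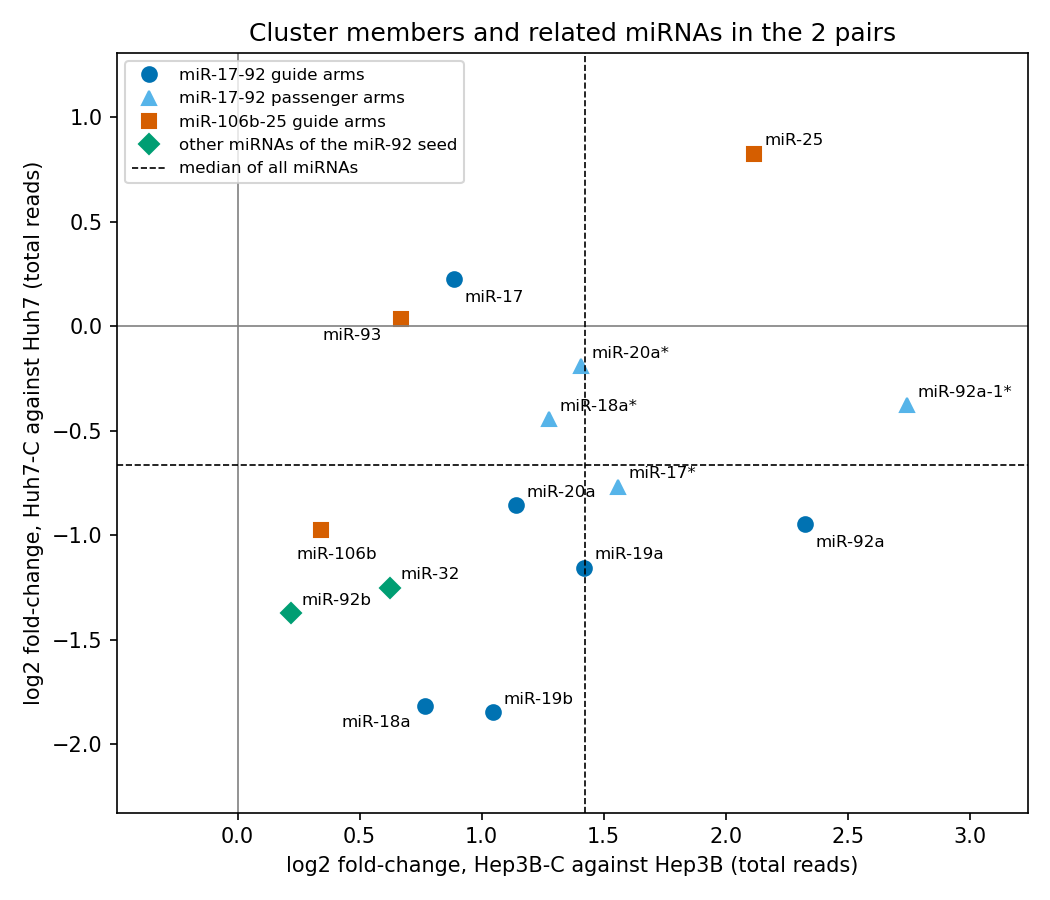
Log2 fold-change with total reads in Hep3B-C against Hep3B (x axis) and in Huh7-C against Huh7 (y axis). Shown are the guide and passenger arms of miR-17-92, the miR-106b-25 guides and the other miRNAs of the miR-92a seed, where they had at least 10 counts in every library. The guides of the cluster on chromosome X are left out, and dashed lines mark the median of all miRNAs in each pair. MiR-92a, miR-92a-1* and miR-25 lie farthest to the right (2.33, 2.74 and 2.12) and stay above 0 in the Hep3B pair under all 4 library sizes, and miR-25 lies highest (0.83).

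The lines were also compared directly, with the same libraries as in the pairs. In Huh7 against Hep3B, 1 of 6 members (miR-17, log2 fold-change -1.80) was called down with total reads and 0 up, where 32.4% of all 828 miRNAs were called up and 9.18% down. Of the others, miR-20a, miR-92a and miR-19b were below 0 (-0.47, -0.89 and -0.14). MiR-18a (0.36) and miR-19a (0.13) were above 0 and turned below 0 under the other 3 library sizes. Under each of those all 6 members were called down, from -4.19 (miR-17, total miRNA counts) to -1.08 (miR-18a, DESeq2 size factors), and 30.1% of all miRNAs were called down with total miRNA counts. That share under TMM and DESeq2 size factors is not given here.

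In Huh7-C against Hep3B-C, all 6 members were called down under each of the 4 library sizes. With total reads the log2 fold-change ranged from -2.23 (miR-18a) to -4.16 (miR-92a, interval -4.21 to -4.11), a 17.9-fold lower level of miR-92a in Huh7-C. Of all 868 miRNAs, 13.6% were called up and 23% down with total reads, and 24.4% were called down with total miRNA counts. Shares over all miRNAs under TMM and DESeq2 size factors are not given here. The members lay 1.41 (miR-18a) to 3.34 (miR-92a) below the median of all miRNAs of -0.82. Sums of other listed markers also differed between the lines, though single markers within a sum did not all follow it. The 5 epithelial markers of the miR-200 family summed to 6772 counts in Hep3B and 18620 in Hep3B-C, against 350 and 396 in Huh7 and Huh7-C. Of these, miR-141 was at 1.61 TPM in Hep3B and 15.3 in Hep3B-C, against 3.01 in Huh7 and 1.96 in Huh7-C. The markers of neural cells summed to 427 and 1359 counts against 10290 and 11617, of which miR-9 gave 154 and 844 against 9765 and 11349. MiR-128 gave 273 and 515 against 525 and 268, and miR-124 had 0 counts in all 4 libraries. The 4 mesenchymal markers summed to 35.3 and 115 TPM against 9.98 and 2.61 TPM. MiR-143 gave most of this sum in Hep3B and Hep3B-C (25.4 and 110 TPM). MiR-199a-3p was at 9.83 and 4.14 TPM against 6.78 and 1.21 TPM. The part of these markers in the difference was not tested.

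Taking both lines as replicates of the change from HCC cells to HCSCs, edgeR's quasi-likelihood test with the parent line as a block called 0 of the 443 miRNAs tested (0%) at an adjusted p of at most 0.05, and 31 had an unadjusted p under 0.05. Of the 6 members, 0 were called and 0 had an unadjusted p under 0.05. Their adjusted p ranged from 0.686 (miR-18a) to 0.914 (miR-19a) in edgeR and their log2 fold-change from -0.85 (miR-18a) to 0.37 (miR-92a). DESeq2 with the same block called 5 miRNAs and 0 members. The model had 1 residual degree of freedom, so that a p above the threshold does not show that the members did not differ.

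By the likeness of their profile over the 4 libraries to that of the cluster sum, the 5 closest of 124 miRNAs with at least 100 counts in every library were miR-181a, miR-130b, miR-181b, miR-744 and let-7b. Their root mean square difference in centred log2 TPM was 0.31, 0.36, 0.42, 0.45 and 0.47. MiR-181a, for example, stood at 615, 1142, 239 and 206.3 TPM in Hep3B, Hep3B-C, Huh7 and Huh7-C. The members themselves differed from the sum of the other 5 by 0.44 (miR-20a and miR-19a) to 0.72 (miR-18a) on this measure. MiR-17* was at place 13 of the 124, miR-93 at place 29 and miR-25 at place 34.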

How the data were processed

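Small RNA of 4 cell populations was sequenced on an Illumina Genome Analyzer II, with 1 library per condition. The authors filtered out contaminants, redundant reads and reads under 18 nt, aligned what was left to NCBI Build 36.1 with SOAP, set aside other small RNA classes and assigned the remainder to miRBase release 17. The deposited values are raw counts for 1733 miRNAs in each library, without normalization. If redundant reads were removed before counting, this could affect the counts. The handling of reads that match several miRNAs is not given in the sources used here. Total reads per library are those the study gives.

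The members and all lists were chosen with earlier results of these data known. Named were the 6 guides, their passenger arms, the paralogous clusters, the other miRNAs of the member seeds and the 5 miRNAs closest to the cluster sum in root mean square difference of centred log2 TPM. Pairs were compared by the exact Audic and Claverie test with the observed count in both tails, leaving out miRNAs at 0 in both libraries. A TPM of 0 was set to 0.001, and 0.5 counts were added for the median of all miRNAs. The model over both lines used edgeR on TMM sizes, over miRNAs that reached 10 counts in 2 or more libraries, with the parent line as a block because each HCSC line came from its HCC line. Deviations of Hep3B and Hep3B-C from the state means correlated at 0.833 over 443 miRNAs. Intervals are 95% (exact, or normal on the log scale for changes relative to the other 5 members). All 24 listed miRNAs were matched by hand from their miRBase names to RefSeq arms (GRCh38.p14), and no coordinates were converted. Of the other marker lists, miR-126 (endothelium) had 807 to 2031 counts, and 4 muscle markers summed to 16 to 139. Both tests were tested on simulated data, with less biological variation than the model over both lines estimated from the real data. The mRNA libraries were not analysed here. Python 3.11.15, numpy 2.4.6, scipy 1.17.1, pandas 2.3.3, matplotlib 3.10.9, R 4.3.3, edgeR 4.0.16 and DESeq2 1.42.0 were used.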

Additional observations from a re-analysis of the deposited data

Results flagged for a closer look

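With total reads as library sizes, 5 members and the cluster sum moved in opposite directions in the 2 pairs, each pair having 1 library per condition, and this difference itself was not put to a test. The log2 fold-change in the Huh7 pair minus that in the Hep3B pair was -2.59 for miR-18a, -2.57 for miR-19a, -2.00 for miR-20a, -2.89 for miR-19b, -3.27 for miR-92a and -2.34 for the cluster sum. With total miRNA counts as library sizes only miR-92a of these kept opposite signs (0.56 and -0.43), and miR-18a, miR-19a, miR-20a, miR-19b and the sum were below 0 in both pairs. With TMM and DESeq2 size factors miR-92a (0.91 and -0.63, 1.15 and -0.37) and the sum (0.16 and -0.45, 0.40 and -0.19) kept opposite signs. MiR-19a had opposite signs as well (0.0047 and -0.84, 0.24 and -0.58), but its 0.0047 with TMM did not differ from 0 beyond counting noise. Under both sizes miR-18a, miR-20a and miR-19b were below 0 in both pairs.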

How the results depend on the processing

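In the Hep3B pair, log2 fold-changes turned below 0 with total miRNA counts for miR-17 (-0.88), miR-18a (-0.99), miR-19a (-0.34), miR-20a (-0.62) and miR-19b (-0.72), with TMM for miR-17 (-0.53), miR-18a (-0.64), miR-20a (-0.27) and miR-19b (-0.37), and with DESeq2 size factors for the same 4 (-0.29, -0.41, -0.037 and -0.13). Between the HCC lines, miR-18a turned to -2.02, -1.10 and -1.08 and miR-19a to -2.25, -1.33 and -1.31 under these 3 sizes, and members called down numbered 6 under each in place of 1. Members called up in Hep3B-C numbered 0 with total miRNA counts, 0 with TMM and 1 with DESeq2 size factors. Where biological variation of 0.2 or 0.4 (as a coefficient of variation) was assumed, they numbered 2 (miR-19a and miR-92a) and 0, and at 0.4 members called down in Huh7-C numbered 0. The share of all miRNAs called under TMM, DESeq2 size factors or assumed variation is not given here, so these counts of members have no background beside them. The cluster sum was at -0.19, 0.16 and 0.40 in the Hep3B pair and at -0.25, -0.45 and -0.19 in the Huh7 pair under the 3 sizes, and at 1.03 and -0.64 without miR-19b and miR-92a.

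An adjusted p of 0.05, a minimum of 10 counts and, chosen after seeing the data, leaving the observed count out of the upper tail changed no member's call in the pairs. That tail moved calls over all miRNAs from 275 to 284 up in the Hep3B pair and from 23 to 24 in the Huh7 pair. Across both lines, 0 members were called without the replicate block, with DESeq2, with total reads, without the count filter and without each library in turn, and 0 had an unadjusted p under 0.05 (also chosen after seeing the data). With 1 library per condition, depth bounds counting noise only, and variation between cultures was not measured.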
